A study of Mus musculus with 4 samples.

Results

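Oxidative phosphorylation subunits encoded in the nucleus were followed in mouse iMOP cells, immortalized multipotent otic (inner ear) progenitors, and in neurons derived from the same line. The members were the rows of the count tables whose symbols begin with Nduf (complex I), Uqcr (complex III) or Atp5 (complex V), are Sdha to Sdhd (complex II), or name the Cox4 to Cox8 subunits (complex IV). This gave 90 of 49997 rows, of which 42 belonged to complex I, 4 to complex II, 8 to complex III, 19 to complex IV and 17 to complex V. A further 15 symbols marked as pseudogenes were left out. The data were 4 libraries of total RNA depleted of ribosomal RNA from 2 biological replicates of each group. The proliferating cells were wild-type iMOPs kept in DMEM/F12 with B27, carbenicillin and basic FGF at 20 ng/ml. The neurons were wild-type iMOPs kept in Neurobasal medium with N21, glutamine and K03861, an inhibitor of the kinase CDK2, at 1 µM. Every library came from 1 immortalized line, so the replicates sample cultures and not animals or independent lines.

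Oxidative phosphorylation moves electrons from NADH and succinate through complexes I to IV to oxygen. Complexes I, III and IV pump protons across the inner mitochondrial membrane, and complex V, the ATP synthase, uses the proton flow to make ATP. Most subunits are encoded in the nucleus and imported, and a small set is encoded in the mitochondrial genome. The change from glycolysis towards oxidative phosphorylation is a known feature of neuronal differentiation. Nuclear respiratory factor 1 (NRF1), the ETS factor GABP, YY1 and SP1 are known regulators of these genes, and the E-box is the site read by MYC and USF factors.

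The promoters of 6 members are shown because 5 of them belong to the member with the highest level in each complex among those in the RefSeq promoter table, and the other, Ndufs5, had the largest fitted difference between neurons and proliferating cells. Each sequence is the 120 bases before the RefSeq start of the gene, read 5′ to 3′ on the strand of the gene in build GRCm38.p6. Capitals mark matches to GCATGCGC (NRF1), CCGGAAG (ETS), AAGATGG (YY1), GGGCGG (SP1) or CACGTG (E-box) on either strand. The NRF1 motif can overlap its own reverse complement, and the ETS motif ends in the letters with which the YY1 motif begins, so that matches may share bases.
Ndufb8 (complex I, chr19:44555443-44555562, minus strand): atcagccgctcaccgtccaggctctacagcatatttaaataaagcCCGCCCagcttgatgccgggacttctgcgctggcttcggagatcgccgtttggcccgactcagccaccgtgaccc
Sdhb (complex II, chr4:140961151-140961270, plus strand): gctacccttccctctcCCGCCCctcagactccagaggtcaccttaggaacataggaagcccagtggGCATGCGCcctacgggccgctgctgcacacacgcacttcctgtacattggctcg
Uqcrh (complex III, chr4:116075071-116075190, minus strand): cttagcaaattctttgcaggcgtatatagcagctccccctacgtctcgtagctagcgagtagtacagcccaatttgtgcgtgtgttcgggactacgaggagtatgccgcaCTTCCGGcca
Cox6a1 (complex IV, chr5:115348959-115349078, minus strand): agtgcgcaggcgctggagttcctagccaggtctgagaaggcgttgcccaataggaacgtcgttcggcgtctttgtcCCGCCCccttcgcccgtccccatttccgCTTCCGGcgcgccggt
Atp5b (complex V, chr10:128083187-128083306, plus strand): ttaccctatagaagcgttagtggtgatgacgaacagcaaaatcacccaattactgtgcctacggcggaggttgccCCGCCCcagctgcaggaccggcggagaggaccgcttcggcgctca
Ndufs5 (complex I, chr4:123718187-123718306, minus strand): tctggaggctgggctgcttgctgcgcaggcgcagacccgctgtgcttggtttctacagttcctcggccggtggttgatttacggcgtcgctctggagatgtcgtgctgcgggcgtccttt

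Sdhb, the iron-sulfur subunit of succinate dehydrogenase, held an NRF1 match among these bases, Uqcrh and Cox6a1 each held an ETS match close to the start, and Ndufs5 held none of the 5 motifs. The full windows ran from 250 bases before to 50 bases after the start, and 75 such windows covered 70 of the 90 members. The NRF1 motif was in 13.3% of the members' windows, against 2.71% of all 32851 windows in the table and 5.32% of the windows of genes tested here. The ETS motif was in 22.7% of the members' windows, 8.86% of all windows and 17.4% of those of tested genes. The YY1 motif was in 14.7%, 6.34% and 7.31% of these sets, and in 8 of the 11 members that held it, a match lay after the start. The SP1 motif was less frequent in the members (38.7%) than in tested genes (61.4%), with 35.7% in all windows. The E-box was in 9.33%, 7.15% and 9.91% of these sets. At least 1 of the NRF1, ETS and YY1 motifs was in 42.7% of the members' windows, 27.1% of those of tested genes and 16.6% of all. Letters shared with a motif are a description of these windows, and no test was made of the shares. The members lie on 19 chromosomes, with 9 of them on chromosome 7 and 3 on chromosome X.

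The libraries held 7446361 to 14484011 counts, of which 53.3% to 76.1% were in a single row for 18S ribosomal RNA. Both replicate 2 libraries were above 74% and both replicate 1 libraries were under 60% in this share. All 37 rows of the mitochondrial genome, 13 of them for protein subunits of the same complexes, were listed at 0 in every library, so only the nuclear subunits could be followed. The labels were compared with marker lists. Of 12 tested neuronal genes, 9 were higher in neurons (median log2 fold change 0.43), with 4 of 12 higher in pair 1 (neurons 1 against proliferating 1, median -0.24) and 9 of 12 in pair 2 (median 0.97). Of these 12, in edgeR, 0 had an adjusted p under 0.05 and 1 an unadjusted p under it. All 4 tested glial genes were lower, led by the astrocyte filament gene Gfap with 181 and 89 counts in proliferating cells and 1 and 2 in neurons. All 10 proliferation genes were fitted higher in neurons (median 0.38), and their summed level outside the 18S row was 1245 and 302 CPM (counts per 1000000) in the proliferating libraries and 1375 and 779 in the neurons. The otic progenitor genes Pax2 and Pax8 were at 0 in all libraries, and 5 of the 6 that could be tested were lower in neurons (median -0.84). Hair cell genes summed to 14.5 to 83.7 CPM and fibroblast genes to 20.5 to 53.0 CPM, with Pou4f3, Otof, Col1a2 and Dcn at 0. The part of these differences in the results on the subunits was not tested. In bulk RNA, fewer cells of one kind and less RNA per cell cannot be told apart.

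The share of RNA in the nuclear subunits was slightly lower in neurons within both replicate pairs, and the groups overlapped. Outside the 18S row, they received 2920 CPM (95% Wilson interval 2864 to 2977) in proliferating replicate 1 and 3271 (3202 to 3341) in proliferating replicate 2. In neurons they received 2670 (2619 to 2722) in replicate 1 and 2976 (2919 to 3034) in replicate 2. The ranges of the 2 groups overlapped, with neurons 2 above proliferating 1. Within the pairs of same-numbered libraries, neurons were lower by 8.56% in pair 1 and by 9.02% in pair 2. The sign in pair 1 depended on the scale, since the summed TMM-scaled CPM (TMM is edgeR's scaling factor) was 833.7 in proliferating 1 and 864.7 in neurons 1, and 1149 and 1050 in pair 2. The intervals cover counting error only, and the distance between the replicates of a group was larger than these intervals. The smallest two-sided p that an exact permutation of 2 against 2 libraries allows is 0.333, and these sums were therefore not tested.

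**Figure D1:**
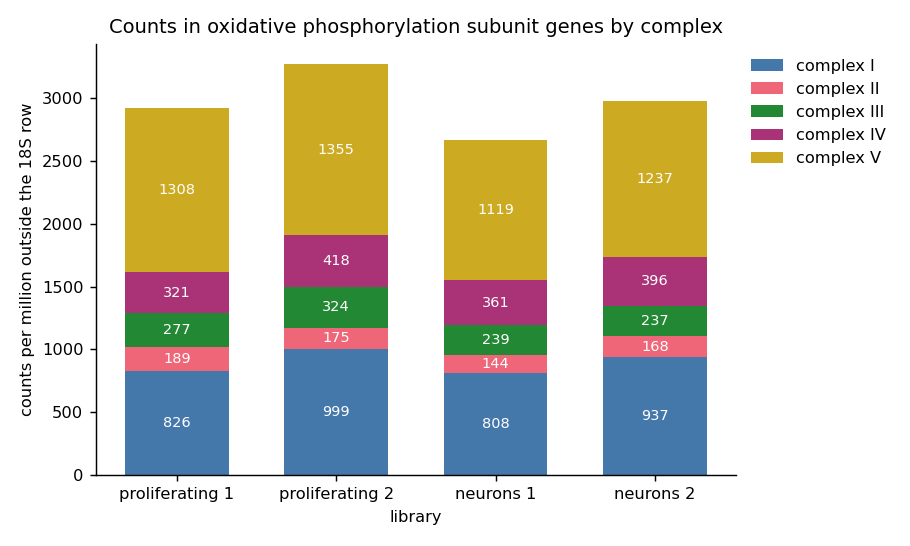
Counts in the subunit genes as CPM outside the 18S row (vertical axis) in the 4 libraries (horizontal axis), stacked by complex with each complex's value printed. The totals run from 2670 in neurons 1 to 3271 in proliferating 2, and complex V is the largest block in every library.

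Complex V contributed the most, with 1308 and 1355 CPM outside the 18S row in proliferating cells and 1119 and 1237 in neurons. Complex V was lower in both neuron libraries than in both proliferating libraries on this scale. Complex I received 826 and 999 CPM in proliferating cells and 808 and 937 in neurons. Complex IV received 321 and 418 in proliferating cells and 361 and 396 in neurons, so that the neurons lay between the proliferating libraries. Complex III received 277 and 324 in proliferating cells and 239 and 237 in neurons, again without overlap between the groups. Complex II, the smallest, received 189 and 175 in proliferating cells and 144 and 168 in neurons, also without overlap. The separation of complexes II, III and V was absent on another scale. In summed TMM-scaled CPM, complex III was 79.0 and 113.7 in proliferating cells and 77.3 and 83.7 in neurons, and complexes II and V overlapped as well. These sums rest on few genes: Atp5a1 and Atp5b, the α and β subunits of the catalytic head of ATP synthase, and Cox4i1 of complex IV together held 31.6% to 35.8% of all member counts. Without these 3 genes the members received 1876 and 2194 CPM in proliferating cells and 1826 and 1965 in neurons.

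Levels per length differed widely between subunits that assemble into the same complex. A level is given here as CPM outside the 18S row per kilobase of transcript, averaged over the 4 libraries. Cox4i1, a regulatory subunit of cytochrome c oxidase, had the highest level at 231, followed by Atp5b at 217.4 and Atp5a1 at 163.1. In complex I the lowest level among tested members was 3.73 (Ndufb4), the accessory subunit Ndufb9 was at 62.4, and the median was 20.6. In complex II they ran from 8.84 (Sdhc, a membrane anchor) to 38.2 (Sdhb), and in complex III from 15.02 (Uqcrb) to 91.2 (Uqcrh, the acidic hinge protein). In complex IV the lowest was Cox7a2l at 8.05, and the median was 28.2. Complex V had the highest median, 43.4, and its lowest tested member was Atp5g1 at 0.70. The annotated transcripts of Atp5g1 are of very different lengths, so its level per length is uncertain. Neighbours in this order could lie closer than the libraries of a gene: Ndufv2 (35.55) and Ndufb10 (35.5) had nearly equal mean levels.

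**Figure D2:**
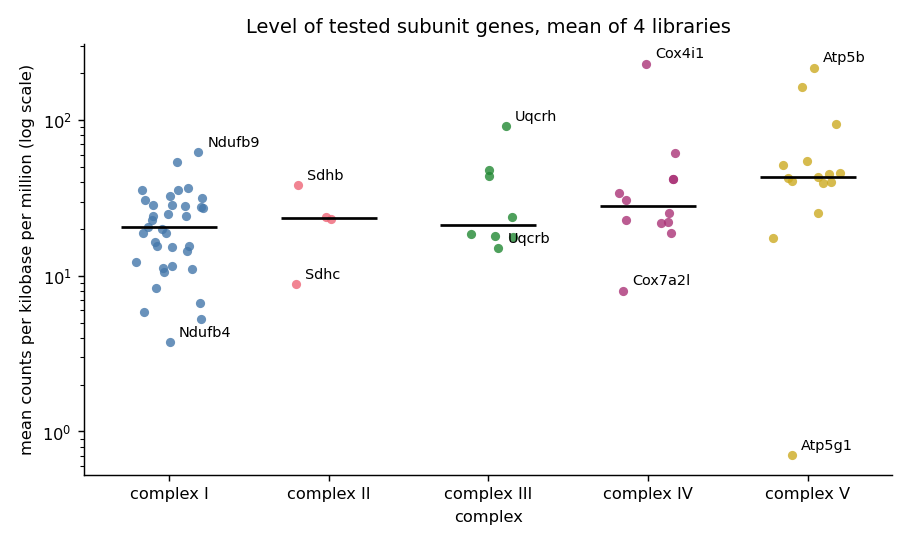
Mean level of tested members over the 4 libraries (vertical axis, CPM outside the 18S row per kilobase, log scale) for complexes I to V (horizontal axis), with the median as a line and the highest and lowest plotted member named. Cox4i1 and Atp5b stand above the others, at 231 and 217.4, and Atp5g1, at 0.70, is the lowest.

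For Cox4, Cox6a, Cox6b, Cox7b and Cox8, a single paralogue held nearly all counts. Cox4i1 had 528, 521, 596 and 658 counts in proliferating 1, proliferating 2, neurons 1 and neurons 2, while Cox4i2, the form known for its induction by low oxygen in lung, was at 0 in all 4. Against a floor of 3 counts summed over the libraries, Cox4i1 was at least 742.2-fold higher per length. Cox6a1 had 113, 103, 135 and 115 counts in the same order and was at least 185-fold higher than the heart and muscle form Cox6a2, which was at 0. Cox7b, with 79, 42, 131 and 50 counts, was at least 54.5-fold higher than Cox7b2, a form known from testis, and Cox8a was at least 82.7-fold higher than Cox8c, both at 0 counts. The muscle form Cox8b had 1 count, against 82, 84, 66 and 66 for Cox8a, a ratio per length of 195 (95% exact interval 34.7 to 7730). Cox6b1 had 35, 62, 62 and 45 counts and Cox6b2, another form known from testis, had 1, a ratio of 182.5 (32.4 to 7245). The muscle form Cox7a1 had 7 counts in all and Cox7a2 had 49, 37, 60 and 57, which placed Cox7a2 17.3-fold (8.24 to 43.6) above it. Each of these minor forms had at most 3 counts in any library of either group, and no exchange of one form for the other was detectable at this depth.

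The other paralogues ranged from a single leading form to nearly equal levels. Ndufa4 had 59 and 45 counts in proliferating cells and 88 and 43 in neurons, and Ndufa4l2, a hypoxia-induced relative, had 2 and 0 and then 6 and 4. The ratio per length of Ndufa4 to Ndufa4l2 was 30.0 (16.8 to 58.9). Ndufa4 carries a complex I name and is grouped there by its symbol, although its protein is now known as a subunit of complex IV. All 3 genes for the c subunit of ATP synthase, which forms the rotating ring, encode the same mature protein. Atp5g3 had 222, 226, 219 and 208 counts, against 12, 6, 6 and 8 for Atp5g2 and 9, 8, 12 and 15 for Atp5g1. Atp5g3 was 22.4-fold (15.8 to 33.0) above Atp5g2 per length. Cox7a2l, which joins complexes III and IV into supercomplexes, had 116 counts and was 2.86-fold (2.26 to 3.62) below Cox7a2 per length. Cox6c2, a near copy of Cox6c, had 94 counts against 235 for Cox6c, a ratio per length of 1.15 (0.90 to 1.47). Reads from such copies may have been split between them, since the treatment of reads with several matches is not given in the sources used here.

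Whether subunit genes changed with differentiation was asked by testing neurons against proliferating cells, and no member was called. The groups also differ in the listed medium, basic FGF and K03861, which cannot be told apart from differentiation here. Of the 90 members, 76 passed the filter on low counts, and 0 of these 76 had a Benjamini-Hochberg adjusted p under 0.05 in edgeR's quasi-likelihood test, against 0% of all 12783 genes tested. DESeq2 also called 0 of 85 members, against 54 of about 25860 genes. At an unadjusted p under 0.05, 0 members and 3.43% of all genes passed. With the replicate number as a block, 0 members and 0.0235% of genes passed at the adjusted threshold, and 0 members and 6.18% of genes at the unadjusted one. Fitted values were higher in neurons for 34 members and lower for 42, with a median log2 fold change of -0.06, against 0.02 over all genes. Members beyond a log2 fold change of 1 in either direction numbered 2 of 76 (2.63%), against 11.7% of all genes. The 14 members that did not pass the filter had at most 14 counts in any library, and 5 of them were at 0 in all.

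The intervals are wide. The 95% interval of the log2 fold change had a half-width of 0.98 in Atp5b, the narrowest, 1.21 at the median and 1.92 in Atp5g1, the widest. Of the 76 intervals, 76 held 0, 53 held 1 and 55 held -1, and 0 lay wholly between -1 and 1. The missing calls do not show that the levels were equal.

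**Figure D3:**
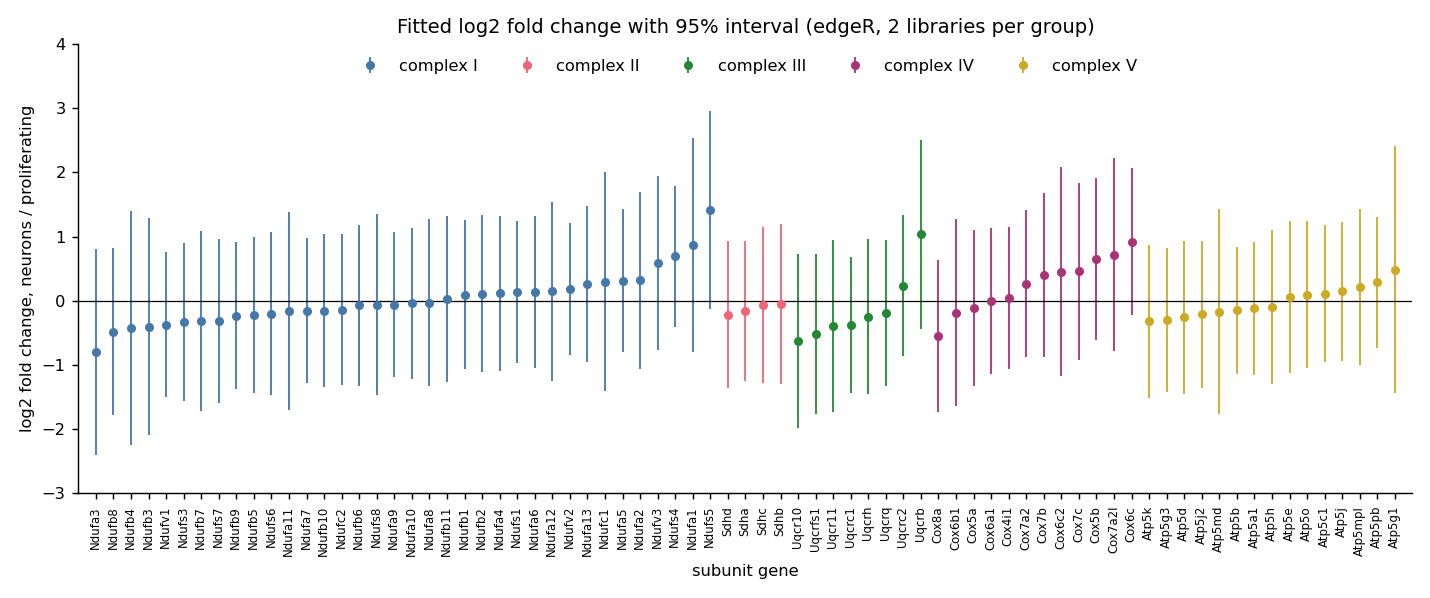
Fitted log2 fold change of neurons over proliferating cells (vertical axis) for the tested members named on the horizontal axis, ordered within complexes I to V, with 95% intervals as bars. All plotted intervals cross 0, and Ndufs5 at 1.42 and Uqcrb at 1.04 are the highest.

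Complex I takes electrons from NADH. Its 37 tested members had a median log2 fold change of -0.04, 17 higher and 20 lower in neurons. The 7 nuclear core subunits, which carry the flavin and the iron-sulfur clusters, had a median of -0.06 (3 higher, 4 lower), and the 30 tested accessory subunits had a median of -0.04.

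Ndufs5, an accessory subunit of the intermembrane space side, had 12 and 10 counts in proliferating cells and 28 and 38 in neurons. Both neuron libraries were above both proliferating libraries. The log2 fold change was 1.42 ± 0.66 (SE), with an interval from -0.13 to 2.96, an unadjusted p of 0.067 and an adjusted p of 0.9998 in edgeR. A row for its pseudogene, Ndufs5-ps, had 6, 6, 8 and 1 counts in the same order, so the pseudogene row did not move with Ndufs5. Ndufs5 lies on chromosome 4 at 123712710 to 123718186 (GRCm38). Other accessory subunits were also higher in both neuron libraries. Ndufs4, a subunit whose loss is a known model of Leigh syndrome, had 70 and 54 counts in proliferating cells and 125 and 104 in neurons (log2 fold change 0.70 ± 0.47). Ndufa1 had 10 and 12 counts and then 28 and 20 (0.87 ± 0.71). Ndufa5 and the core subunit Ndufv2 were higher in both neuron libraries in TMM-scaled CPM, with log2 fold changes of 0.31 and 0.19. At the other end, Ndufa3 had 20 and 25 counts in proliferating cells and 18 and 13 in neurons, with a log2 fold change of -0.80 ± 0.69. Leaving out proliferating replicate 2 gave -0.19, and leaving out proliferating replicate 1 gave -1.27. Ndufa12 had 28, 26, 28 and 40 counts, while its pseudogene row had 29, 26, 29 and 31, so the reads of this subunit cannot be assigned with certainty.

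Complex II is succinate dehydrogenase, an enzyme shared with the tricarboxylic acid cycle. Its 4 genes had fitted values between -0.22 and -0.05, all slightly lower in neurons. Sdha, the flavoprotein, was measured at 28.3 and 18.5 CPM (from here on scaled by TMM, with the 18S row in the total) in proliferating cells and 20.2 and 21.8 in neurons. The 2 proliferating libraries were the highest and the lowest of the 4. Sdhb was measured at 9.86 and 19.8 CPM in proliferating cells and 11.9 and 16.5 in neurons, again with the neurons between the proliferating libraries. Sdhd, a membrane anchor with the lowest fold change of the complex, had 99 and 89 counts and then 91 and 95, and was fitted at -0.22 ± 0.49 (SE).

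Complex III passes electrons from ubiquinol to cytochrome c. Of its 8 genes, 6 were fitted lower in neurons, and the median of -0.31 was the lowest of the complexes. Uqcrh, with the highest level, had 151 and 174 counts in proliferating cells and 155 and 169 in neurons, which lay between them (log2 fold change -0.25 ± 0.52). Uqcrc1, a core protein, was measured at 27.5 and 31.0 CPM in proliferating cells and 18.8 and 26.2 in neurons, without overlap. Its log2 fold change was -0.38 ± 0.45. Uqcrfs1, the Rieske iron-sulfur protein, was measured at 14.3 and 32.1 CPM in proliferating cells and 16.6 and 15.8 in neurons, so that 1 library, proliferating 2, stood apart. The log2 fold change of Uqcrfs1 was -0.51 ± 0.53, and without proliferating replicate 1 it was -1.02. Uqcr10 had 33 and 27 counts and then 27 and 18 (log2 fold change -0.62 ± 0.58, but -0.38 without proliferating replicate 2). Uqcrb, a subunit near the quinone site, went the other way with 22 and 12 counts in proliferating cells and 56 and 23 in neurons, a log2 fold change of 1.04 ± 0.63. Its value without neurons replicate 1 was 0.41. Cyc1, the cytochrome c1 subunit of the same complex, is not matched by the naming rule and had 112 and 171 counts and then 172 and 113.

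Complex IV passes electrons to oxygen. It was the only complex with a median above 0 (0.34), with 8 of 12 tested genes fitted higher in neurons. Cox6c, a small membrane subunit, was measured at 3.78 and 4.06 CPM in proliferating cells and 6.39 and 8.46 in neurons. Its groups did not overlap, and its log2 fold change of 0.92 ± 0.49 (interval -0.22 to 2.06, unadjusted p = 0.099 and adjusted p = 0.9998 in edgeR) ranged from 0.70 to 1.07 when each library was left out. Cox7a2l had 16 and 23 counts in proliferating cells and 37 and 40 in neurons (0.72 ± 0.64, but 0.17 without proliferating replicate 1 and 1.46 without proliferating replicate 2), and Cox5b, a zinc-binding subunit, had 43 and 36 and then 56 and 83 (0.65 ± 0.54). The most abundant subunit, Cox4i1, was measured at 43.4 and 70.5 CPM in proliferating cells and 50.1 and 67.1 in neurons. Its neurons lay between the proliferating libraries, and its log2 fold change was 0.04 ± 0.48. Cox8a, another small subunit, was measured at 6.74 and 11.4 CPM and then 5.55 and 6.73, with a log2 fold change of -0.56 ± 0.51. Without proliferating replicate 2 it was -0.12, and without proliferating replicate 1 it was -0.92. Without proliferating replicate 1, the median of complex IV was -0.08, so its sign rests on that library.

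Complex V makes ATP. Its 15 tested genes had a median of -0.10, 7 higher and 8 lower in neurons. Atp5b was measured at 127.4 and 160.0 CPM in proliferating cells and 122.2 and 136.7 in neurons, and Atp5a1 at 127.4 and 147.8 and then 101.1 and 152.8. The groups overlapped for both on this scale. Per kilobase outside the 18S row, Atp5b was at 232.8 and 237.7 in proliferating cells and 196.9 and 202.2 in neurons, without overlap. Atp5a1 overlapped on that scale as well. The log2 fold change of Atp5b was -0.15 ± 0.42, with an interval from -1.14 to 0.83. The 5 genes of the catalytic head and central stalk had a median of -0.12, and the 4 genes of the peripheral stalk had a median of 0.12. Among the latter, Atp5pb was measured at 20.5 and 20.4 CPM in proliferating cells and 26.2 and 23.8 in neurons, without overlap (0.29 ± 0.44). Of the membrane subunits, Atp5k had 57 and 51 counts and then 48 and 51 (-0.32 ± 0.51), which ranged from -0.62 without proliferating replicate 1 to -0.0035 without proliferating replicate 2. Atp5l, a dimer-interface subunit that did not pass the filter, had 4 and 7 counts in proliferating cells and 14 and 13 in neurons. At the upper end of the complex, Atp5g1 had 9 and 8 counts and then 12 and 15 (0.49 ± 0.82), which ranged from 0.16 without neurons replicate 2 to 0.78 without proliferating replicate 2.

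Groups that did not overlap were about as frequent in the members as elsewhere. Both neuron libraries were above both proliferating libraries in CPM for 10 of 76 members (13.2%), against 12.9% of all genes. Both were below for 8 members (10.5%), against 14.5% of all genes. The 10 higher members were Ndufs5, Ndufa1, Ndufs4, Ndufa5, Ndufv2, Uqcrb, Cox6c, Cox7a2, Atp5j and Atp5pb, and the 8 lower ones were Ndufa3, Ndufb4, Ndufs6, Ndufa7, Uqcr10, Uqcr11, Uqcrc1 and Cox8a. These shares are near the background.

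The replicate pairs gave different signs for the members as a set. Pair 1 is neurons 1 against proliferating 1, and pair 2 is neurons 2 against proliferating 2. Both replicate 2 libraries share a set number in their titles. In pair 1 the members' median log2 difference was 0.20, with 50 of 76 higher in neurons, and in pair 2 it was -0.23, with 26 of 76 higher. The medians over all genes were 0.00 and 0.07. Members higher in neurons in both pairs numbered 20 (26.3%), against 28.8% of all genes, and members lower in both numbered 20 (26.3%), against 25.5%. Members higher in pair 1 and lower in pair 2 numbered 30 (39.5%), against 21.2% of all genes, and 6 (7.89%) showed the reverse, against 24.5%. In complex IV, 11 of 12 genes were higher in pair 1 (median 0.49) and 5 of 12 in pair 2 (median -0.04). In complex V, 12 of 15 were higher in pair 1 and 5 of 15 in pair 2. Ndufc1 was the widest example, at 1.39 in pair 1 and -0.39 in pair 2. Ndufs5 and Cox6c were above 0.7 in both.

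**Figure D4:**
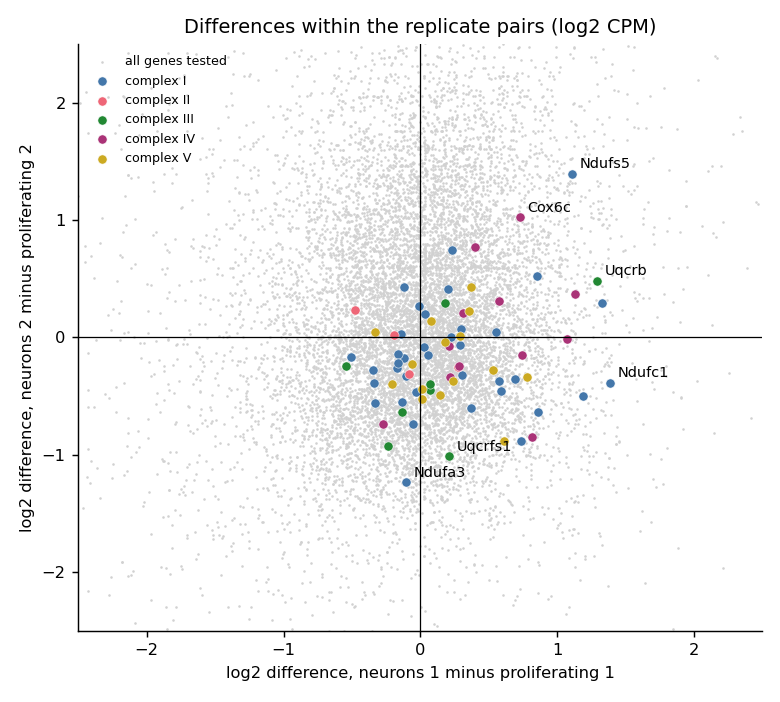
Log2 difference in CPM of neurons minus proliferating cells in pair 1 (horizontal axis) and pair 2 (vertical axis) for all tested genes (grey) and the 76 tested members (coloured by complex). The lower right quadrant holds 30 members and the upper left holds 6, while Ndufs5, Cox6c and Uqcrb lie at the upper right.

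The proliferating libraries differed from each other more than the groups did. Proliferating 2 was above proliferating 1 in TMM-scaled CPM for 69 of 76 members (90.8%, median log2 difference 0.58), against 48.9% of all genes (median -0.04). Neurons 2 was above neurons 1 for 52 of 76 members (median 0.20), against 50.1% of all genes. With counts scaled to the total outside the 18S row instead, 59 of 76 members were higher in proliferating 2 (median 0.31), and the median of all genes was -0.33. With the total count as the scale, the median of the members was -0.57 and that of all genes was -1.18, so the sign of the members' value turned while they stayed above the rest. Proliferating 2, the library highest in the subunits outside the 18S row, had the lowest sum of proliferation genes on that scale. This sum was 302 CPM, against 1245 in proliferating 1, and Top2a had 162 counts against 2035. In TMM-scaled CPM, Mcm2 and Birc5 were higher in proliferating 2 than in proliferating 1, and the other proliferation genes were lower. The part of the proliferation genes in the members' values was not tested. Without proliferating replicate 2 the members' median fold change was 0.31, and without proliferating replicate 1 it was -0.33. By complex, the medians for I to V were 0.36, 0.18, 0.13, 0.62 and 0.30 without proliferating replicate 2. They were -0.39, -0.43, -0.50, -0.08 and -0.25 without proliferating replicate 1, so the sign for every complex turned on which proliferating library was kept.

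Transcript length moved with the pairs. The tested members are short, with a median transcript length of 849.5 bases, against 2906 bases over all genes with a length. Of the 76, 60 were in the shortest quintile of genes (up to 1487 bases). In that quintile, all genes had a median of 0.15 in pair 1 and -0.10 in pair 2. In the longest quintile (4900 bases and above), which held 0 members, the medians were -0.10 and 0.44. The signs of the shortest quintile were thus those of the members, whose medians of 0.20 and -0.23 were farther from 0. After a correction for length in the fit of neurons against proliferating cells, the members' median was 0.01, against -0.06 in the reported fit. It was 0.03 with the replicate block as well. The correction used the length behind the RPKM values and gave no value for each pair. That length was far above the transcript length for some members, as in Ndufa7 (9840 against 528 bases) and Atp5d (10710 against 931). For others it was close, as in Uqcrh (546 against 547). The part of length in the signs of the pairs was not tested.

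**Figure D5:**
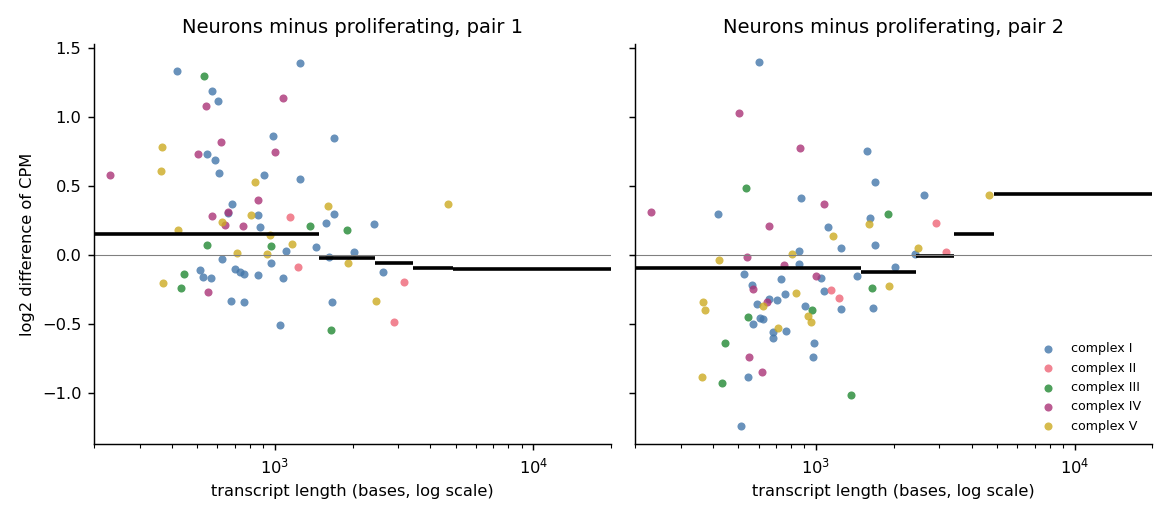
Log2 difference in CPM of neurons minus proliferating cells (vertical axis) against transcript length (horizontal axis, log scale) for each tested member in pair 1 (left) and pair 2 (right), with the medians of all tested genes in quintiles of length as black lines. The line of the shortest quintile is at 0.15 on the left and -0.10 on the right, and that of the longest is at -0.10 and 0.44.

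Genes that build or feed the respiratory chain were read from the same fit. Of 44 assembly factors, 38 were tested, 17 were higher and 21 lower in neurons (median -0.10), and 0 passed at the adjusted or the unadjusted threshold. Sdhaf4, an assembly factor of complex II, was the highest with 11 and 5 counts and then 11 and 25 (log2 fold change 1.10 ± 0.85), and Sdhaf1 was the lowest with 15 and 34 and then 9 and 16 (-1.27 ± 0.85). Of 18 electron carriers and coenzyme Q genes, 6 were higher and 12 lower (median -0.12). Coq7, a hydroxylase late in coenzyme Q synthesis, had 55 and 65 counts in proliferating cells and 33 and 25 in neurons. Both neuron libraries were below both proliferating ones, and the log2 fold change was -1.31 ± 0.56 (unadjusted p = 0.0499, adjusted p = 0.9998 in edgeR). Coq7 was the only gene of the 4 pathway lists under an unadjusted p of 0.05. These lists had 38, 18, 17 and 21 tested genes, and 3.43% of all genes tested were under that threshold. Coq6 was the highest of the electron carriers and coenzyme Q genes, with 25 and 11 counts and then 28 and 43 (0.91 ± 0.63).

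The 17 genes of pyruvate entry and the tricarboxylic acid cycle summed to 1026 and 1016 CPM outside the 18S row in proliferating cells and 835 and 884 in neurons. The neurons were below the proliferating cells in both libraries on this scale. The separation was absent in summed TMM-scaled CPM, where neurons 2 lay above proliferating 1. Of the 17 genes, 11 were fitted lower (median -0.23), with 0 called. Pcx, pyruvate carboxylase, was the lowest with 56 and 59 counts and then 42 and 35 (-0.82 ± 0.53). Pdha1, of pyruvate dehydrogenase, was the highest with 428 and 124 and then 468 and 359 (0.55 ± 0.51), a value in which proliferating 2 stood apart. Of 21 tested genes of mitochondrial biogenesis, 13 were higher and 8 lower (median 0.13), with 0 called. Mterf4 was the highest with 28 and 12 counts and then 40 and 32 (0.74 ± 0.58). Ppargc1b was the lowest with 143 and 96 counts and then 83 and 82 (-0.69 ± 0.47). Ppargc1a, a coactivator of respiratory genes, had 63 and 3 counts in proliferating cells and 54 and 48 in neurons, again with proliferating 2 apart. Tfam, which packages mitochondrial DNA, had 157 and 97 and then 128 and 104 (-0.28 ± 0.46). Some factors whose motifs were counted in the promoters were in this list. Nrf1 had a log2 fold change of 0.20 ± 0.53 and Yy1 -0.04 ± 0.43. For GABP, Gabpa was at 0.18 ± 0.63 and Gabpb1 at 0.13 ± 0.48. The genes of SP1, MYC and USF were not in the list.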

How the data were processed

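Per the labels, total RNA was depleted of ribosomal RNA and made into stranded libraries with a Takara SMARTer kit. The submitters' processing notes name HISAT2, SAMtools, featureCounts, DESeq2, deepTools 3.4.3 and build mm10, without roles or settings. The authors deposited raw counts per gene, which were tested, and RPKM values, which served as an alternative and gave the length for the length correction. Levels per length used GENCODE M21 transcripts, which 89 of the 90 members matched, and promoters came from RefSeq (GRCm38.p6). The 18S row was 53.3% to 76.1% of counts.

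Groups and replicate numbers came from the sample titles. All genes were tested together with edgeR 4.0.16 in R 4.3.3 (filterByExpr with a minimum count of 10 and a minimum total of 15, TMM factors, quasi-likelihood test, two-sided, Benjamini-Hochberg over 12783 genes). SE is the absolute fold change over the root of F. The common biological coefficient of variation was 0.456. Differences within pairs are untested values of log2 CPM (prior count 2). Deviations of same-numbered libraries from their group means correlated with r = 0.33 across 12783 genes and 0.14 across the 76 tested members. Both replicate 2 titles also name the same set, and the numbers were taken to pair the libraries. The test was also run on simulated counts with the same dispersion for all genes. These had no effect of replicate set or length, so the run does not cover either.

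The members, gene lists, motifs and subgroups of complexes were chosen with earlier results of these data known. Named with the counts or CPM of every library were, per complex, the member with the highest level and the largest fold change each way, the paralogue pairs, and the ends of each pathway list. One member is not reported here by name. Other named genes were chosen after their values were seen. Alternatives used DESeq2 1.42.0, limma 3.58.1 on log2 RPKM with pseudocounts of 0.1 and 1, other scalings and filters, the replicate block, the length correction, and leaving out each library.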

Additional observations from a re-analysis of the deposited data

How the results depend on the processing

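The count of called members was 0 under every alternative that was run. The count of all genes called was 0 in the reported fit, 54 with DESeq2, 163 with no gene filter, 3 with the length correction, 2 by library size alone, 2 and 1 on log2 RPKM with pseudocounts of 0.1 and 1, and 18 to 113 with a library left out. With the replicate block it was 3, and 119 with the block and the length correction; the block changed no call of a member. The members' median log2 fold change was -0.33 to 0.31 with a library left out. By library size alone, which moved the median of all genes by -0.29, 9 members were higher and 42 lower in both pairs, against 13.8% and 39.4% of all genes. With TMM scaling, of 54 members with a mean count of at least 50, 12 were higher and 12 lower in both pairs. Over all genes tested, without this limit on the mean count, the shares were 28.8% and 25.5%. With the 18S row in the total, members had 1363 and 818 CPM in proliferating cells and 1085 and 711.2 in neurons. Uncalled genes near 0 changed sign. Cox6a1 was 0.0051 without the 18S row, 0.040 without a filter and 0.021 with the replicate block, where Sdhb was 0.0076. Sdhb was 0.062 with the length correction and 0.10 with the block as well, where Cox6b1 was 0.0067. By library size alone and on log2 RPKM with 0.1 and 1 added, Cox4i1 was -0.16, -0.16 and -0.15 and Ndufa4 -0.0030, -0.16 and -0.13. With each library left out, the ranges were -0.34 to 0.042 (Atp5b), -0.66 to 0.14 (Atp5g3), -0.30 to 0.45 (Cox4i1), -0.31 to 0.33 (Cox6a1), -0.80 to 0.79 (Cox6b1), -0.29 to 0.85 (Cox7b), -0.36 to 0.44 (Ndufa4), -0.51 to 0.55 (Sdhb), -0.51 to 0.11 (Sdhd) and -0.67 to 0.30 (Uqcrh). The cause of these changes was not tested. With a library left out, the lone library of its group is assumed to vary like the other group. Low counts limit precision: the widest interval was that of Atp5g1, with 8 to 15 counts a library.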

Other observations

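Pseudogene rows of the subunits gave values beside their parents. Of the 15 such symbols, Ndufa12-ps had 115 counts in all against 122 for Ndufa12, the nearest to parity among them. Atp5pb-ps had 86 counts against 945 for Atp5pb, Ndufs5-ps had 21 against 88 for Ndufs5, and Atp5c1-ps had 19 against 847 for Atp5c1. Ndufs6b, a near copy of Ndufs6 that did not pass the filter, had 4 and 2 counts in proliferating cells and 7 and 9 in neurons, while Ndufs6 had 37 and 23 and then 32 and 26.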
